A study of Mus musculus with 15 samples.

Results

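The genes described here are the potassium channel genes of the mouse, taken as the protein-coding genes whose symbol starts with Kcn in the GENCODE M39 annotation of GRCm39. They numbered 93 of 21770 protein-coding genes and fell into 16 subfamilies in 6 classes. The histone mark H3K4me3, in which lysine 4 of H3 carries 3 methyl groups, was mapped by ChIP–seq in mBA cells, a brown adipocyte model. WT cells were untreated and wild type, and WT + 2HG cells were wild type and received octyl d-2HG, a cell-permeable ester of 2-hydroxyglutarate dissolved in DMSO, at 500 µM for 72 h by the study's methods. CLPP-KO cells lacked the mitochondrial matrix protease CLPP and were kept with added uridine. The labels call the cells primary, whereas the study's methods describe preadipocytes of newborn brown fat immortalized with the SV40 large T antigen, and name mature brown adipocyte cells as the source for ChIP–seq. Each condition had 4 ChIP samples and 1 input, and the authors called 1 peak list per condition from the 4 replicates together. With a single list per condition no spread between replicates can be given, and every comparison between lists is a description without a test. The labels do not say whether WT cells received uridine, so uridine cannot be told apart from the CLPP-KO genotype. They also name no vehicle for the untreated cells, so DMSO cannot be told apart from 2HG. Below, 3 values in a row follow the order of the lists, WT first, then WT + 2HG, then CLPP-KO, and a pair of values for a gene without a WT peak gives WT + 2HG first.

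Potassium channels set the resting potential of cells and end their action potentials. Voltage-gated pores open on depolarization, inward rectifiers and tandem-pore (K2P) leak channels hold the resting potential, and calcium- or sodium-activated pores couple it to intracellular ions, while auxiliary subunits change the gating or trafficking of the pores. Most of these genes are best known from neurons, heart, muscle and secretory epithelia. H3K4me3 marks active and poised promoters, mostly those rich in CpG dinucleotides.

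The sequences of 3 regions of genes marked in the treated lists only are shown, 2 at the 5′ end of a gene and 1 at a peak summit, since the CpG content of these places differed. Each has 300 bases of GRCm39, read 5′ to 3′ on the strand of its gene, with every CpG in capitals. For genes marked in both treated lists and for those marked in CLPP-KO only, the highest-ranked gene in CLPP-KO whose strongest peak there covered its own 5′ end and no promoter of another coding gene was taken, with 270 bases before the 5′ end and 30 from it on. Kcnc4, a Shaw-type voltage-gated pore with a promoter peak in both treated lists and none in WT, held 4 CpG (chr3:107367752-107368051, minus strand). Kcns1, a silent subunit with a promoter peak in CLPP-KO only, held 5 (chr2:164013198-164013497, minus strand). The summits of their strongest CLPP-KO peaks lay 877 bp (Kcnc4) and 172 bp (Kcns1) past these 5′ ends, outside the bases shown. A WT + 2HG peak 2435 bp from the Kcns1 start lay too far away to count. With the treated lists cut to the WT length by area, Kcns1 was marked in no list. The last sequence is centred on the summit of the strongest promoter peak found in CLPP-KO only, that of the Shaw-type pore Kcnc2, which lay in a coding exon (chr10:112107698-112107997, plus strand) and held 28. This summit lay 2622 bp past the 5′ end of Kcnc2 and 726 bp past its nearest start. At that 5′ end, in the 300 bases from 250 before to 50 after it, Kcnc2 held 2.
Kcnc4: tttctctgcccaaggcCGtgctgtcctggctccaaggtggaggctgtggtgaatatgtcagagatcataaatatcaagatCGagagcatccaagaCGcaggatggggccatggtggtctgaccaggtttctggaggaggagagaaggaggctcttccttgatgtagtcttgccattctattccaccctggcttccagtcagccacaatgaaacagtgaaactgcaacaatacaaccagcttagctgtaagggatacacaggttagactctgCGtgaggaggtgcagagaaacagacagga
Kcns1: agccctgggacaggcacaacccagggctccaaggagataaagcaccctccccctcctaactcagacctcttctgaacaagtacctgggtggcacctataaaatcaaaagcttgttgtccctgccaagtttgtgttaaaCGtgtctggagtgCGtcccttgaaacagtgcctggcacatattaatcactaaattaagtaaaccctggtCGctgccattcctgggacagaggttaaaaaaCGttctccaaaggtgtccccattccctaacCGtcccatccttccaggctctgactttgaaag
Kcnc2 summit: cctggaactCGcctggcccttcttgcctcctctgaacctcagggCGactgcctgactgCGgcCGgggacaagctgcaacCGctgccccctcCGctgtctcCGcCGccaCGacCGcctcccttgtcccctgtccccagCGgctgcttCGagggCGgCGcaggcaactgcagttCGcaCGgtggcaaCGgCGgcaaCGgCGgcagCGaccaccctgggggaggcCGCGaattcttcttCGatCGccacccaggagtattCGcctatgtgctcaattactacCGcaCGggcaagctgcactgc

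The deposited lists held 12342 peaks for WT, 14059 for WT + 2HG and 15118 for CLPP-KO. Read counts are not part of them, so the depth behind a peak is unknown. Of 7 brown adipocyte markers, Prdm16 had a promoter peak in all lists, Cidea in both treated lists and Ebf2 in CLPP-KO only, whereas Ucp1, Dio2, Ppargc1a and Elovl3 had none. Of 7 general adipocyte markers, 2 were marked in WT (Pparg and Cebpa) and 4 in each treated list, while Fabp4, Adipoq and Cidec were unmarked throughout. Of 8 neuronal markers, 5, 4 and 6 were marked, and of 8 muscle markers 1, 1 and 3. Of 4 endothelial markers 1 was marked in each list, and of 4 immune markers 0. Among all protein-coding genes 51.3, 56.4 and 58.2% had a promoter peak. The part of these cell type markers in the results on potassium channel genes was not tested.

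Potassium channel genes were marked less often than coding genes as a whole in WT. In CLPP-KO they were marked more often in the list as deposited, but less often once the lists were made equally long. A gene counted as marked when a peak overlapped the 2000 bp on either side of any of its transcript starts. In WT, 28 of the 93 genes were marked (30.1%), against 51.3% of all protein-coding genes. In WT + 2HG the count was 50 (53.8%), against 56.4%, and in CLPP-KO it was 61 (65.6%), against 58.2%. In bulk samples a mark on more cells and a stronger mark per cell cannot be told apart.

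No gene marked in WT lacked a promoter peak in a treated list (0 of 28, against 1.24% of the 11159 coding genes marked in WT), so the difference between the lists lay in the 65 genes with no WT peak. Of these, 33 (50.8%) had a peak in CLPP-KO, against 14.9% of the 10611 coding genes with no WT peak. In WT + 2HG, 22 of the 65 (33.8%) had a peak, against 11.6%. By combination, 21 genes had a peak in both treated lists (against 9.74% of coding genes). A further 12 were marked in CLPP-KO only (5.15%) and 1, Kcnip2, only in WT + 2HG (1.83%), while 31 had no promoter peak in any list. Both contrasts use the same WT list, and their counts are not independent.

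The treated lists were longer than the WT list, and part of the counts moved with list length. When each treated list was limited to its 12342 peaks of largest area, 28, 40 and 47 genes were marked. These are 30.1, 43.0 and 50.5% of the potassium channel genes, against 51.3, 53.6 and 53.6% of coding genes, so that the share in CLPP-KO lay below the background. With peaks kept by the smallest summit p it was 49.5%, against 53.3%. With the limit by area, 20 of the 65 genes with no WT peak had a CLPP-KO peak (30.8%, against 8.39% of coding genes). In WT + 2HG 13 of them had a peak (20.0%, against 7.26%). Genes marked in both treated lists and not in WT numbered 12 under this limit, and 10 with peaks kept by summit p.

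**Figure D1:**
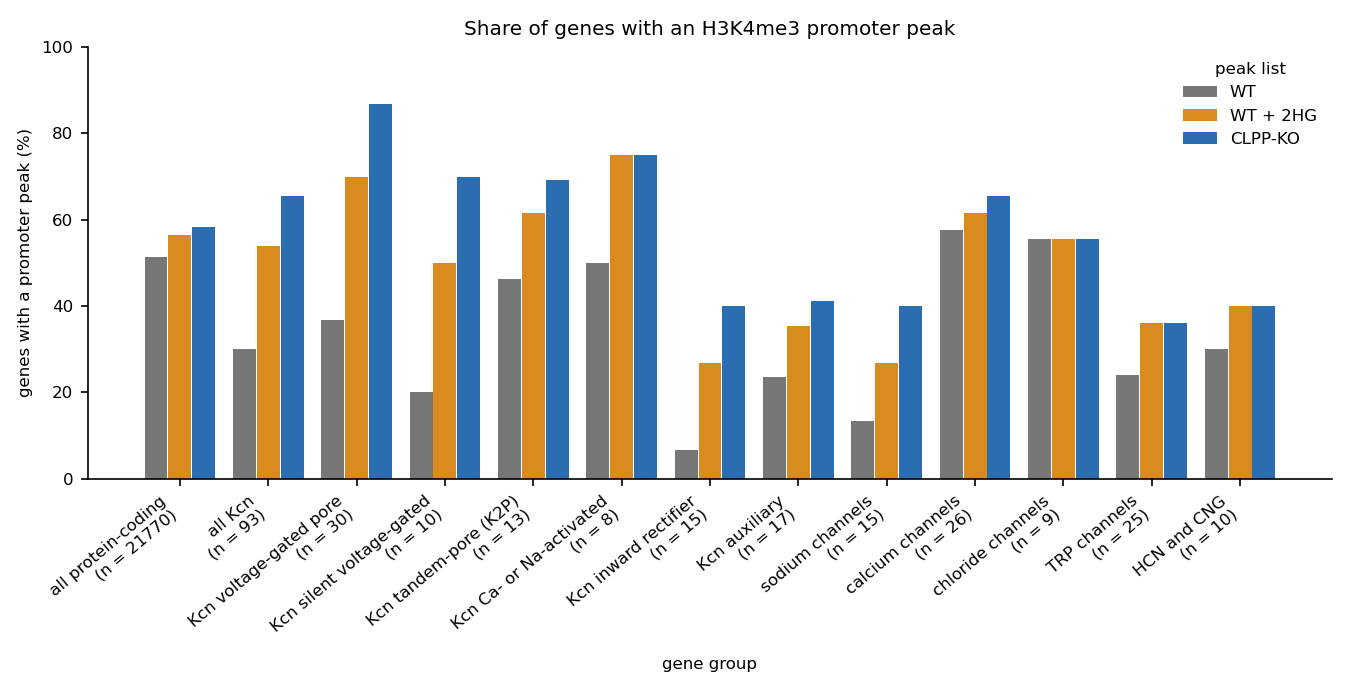
Share of genes (%) with an H3K4me3 promoter peak in the WT, WT + 2HG and CLPP-KO lists, by gene group, with the number of genes in parentheses and no error bars because each condition has 1 list. All Kcn genes stood at 30.1, 53.8 and 65.6% and all protein-coding genes at 51.3, 56.4 and 58.2%, and the Kcn voltage-gated pores reached 86.7% in CLPP-KO.

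In the deposited lists every class of potassium channel genes had more marked genes in CLPP-KO than in WT, but at equal list length the auxiliary genes had 4 in both. Of the 30 voltage-gated pores, 11, 21 and 26 were marked, and the 86.7% in CLPP-KO was the largest share of any class in the deposited list. At equal list length by area their count in CLPP-KO was 20, and the calcium- or sodium-activated pores, with 6 of 8, had the larger share. Their silent relatives, which conduct only together with other Kv pores, had 2, 5 and 7 of 10. The calcium- or sodium-activated pores had 4, 6 and 6 of 8, and the K2P leak channels 6, 8 and 9 of 13. The inward rectifiers had the smallest share in WT, with 1 of 15, and 4 and 6 in the treated lists. Of the 17 auxiliary genes 4, 6 and 7 were marked. These groups hold few genes, and differences between classes were not tested.

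Other channel families and potassium handling genes give the setting, beside the 51.3, 56.4 and 58.2% of all protein-coding genes that were marked. Calcium channel genes were marked in 15, 16 and 17 of 26, and chloride channel genes in 5 of 9 in each list. Sodium channel genes, which had the lowest WT share of these families, were marked in 2, 4 and 6 of 15. TRP channel genes were marked in 6, 9 and 9 of 25, and HCN and CNG channel genes in 3, 4 and 4 of 10. Partners of potassium channels outside the Kcn genes were marked in 7, 9 and 10 of 16, with Abcc8, the sulfonylurea receptor of KATP channels, marked in both treated lists only. Potassium pumps and cotransporters were marked in 9, 10 and 11 of 17.

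The promoter peaks of potassium channel genes ranked low within their lists. Strength was read as the within-list percentile of the area of a gene's strongest promoter peak, that is, its mid-rank among all peaks of the list on a scale from 0 to 100, since areas are not scaled between lists. Percentiles of different lists are not on 1 scale, because the lists differ in length, and the median over the 11021 coding genes marked in all lists was 59.8, 64.8 and 67.0. Genes marked in all lists were therefore also ranked from 0 to 100 among these 11021 genes in each list, called the common rank. The median percentile of the marked genes was 28.6 (28 genes, range 1.84 to 69.1), 28.1 (50 genes, 1.34 to 87.2) and 31.9 (61 genes, 0.261 to 80.9). Over all coding genes with a promoter peak it was 59.3, 60.6 and 62.0. No potassium channel gene reached percentile 90 in any list, which 1413 of 11159, 1608 of 12284 and 1708 of 12663 marked coding genes did. Below the median peak of the list lay 24 of 28, 38 of 50 and 45 of 61 genes. Of the same marked coding genes, 4402, 4627 and 4537 lay below it. In width the same peaks stood closer to the middle of their lists, at a median percentile of 49.3, 41.2 and 51.0.

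**Figure D2:**
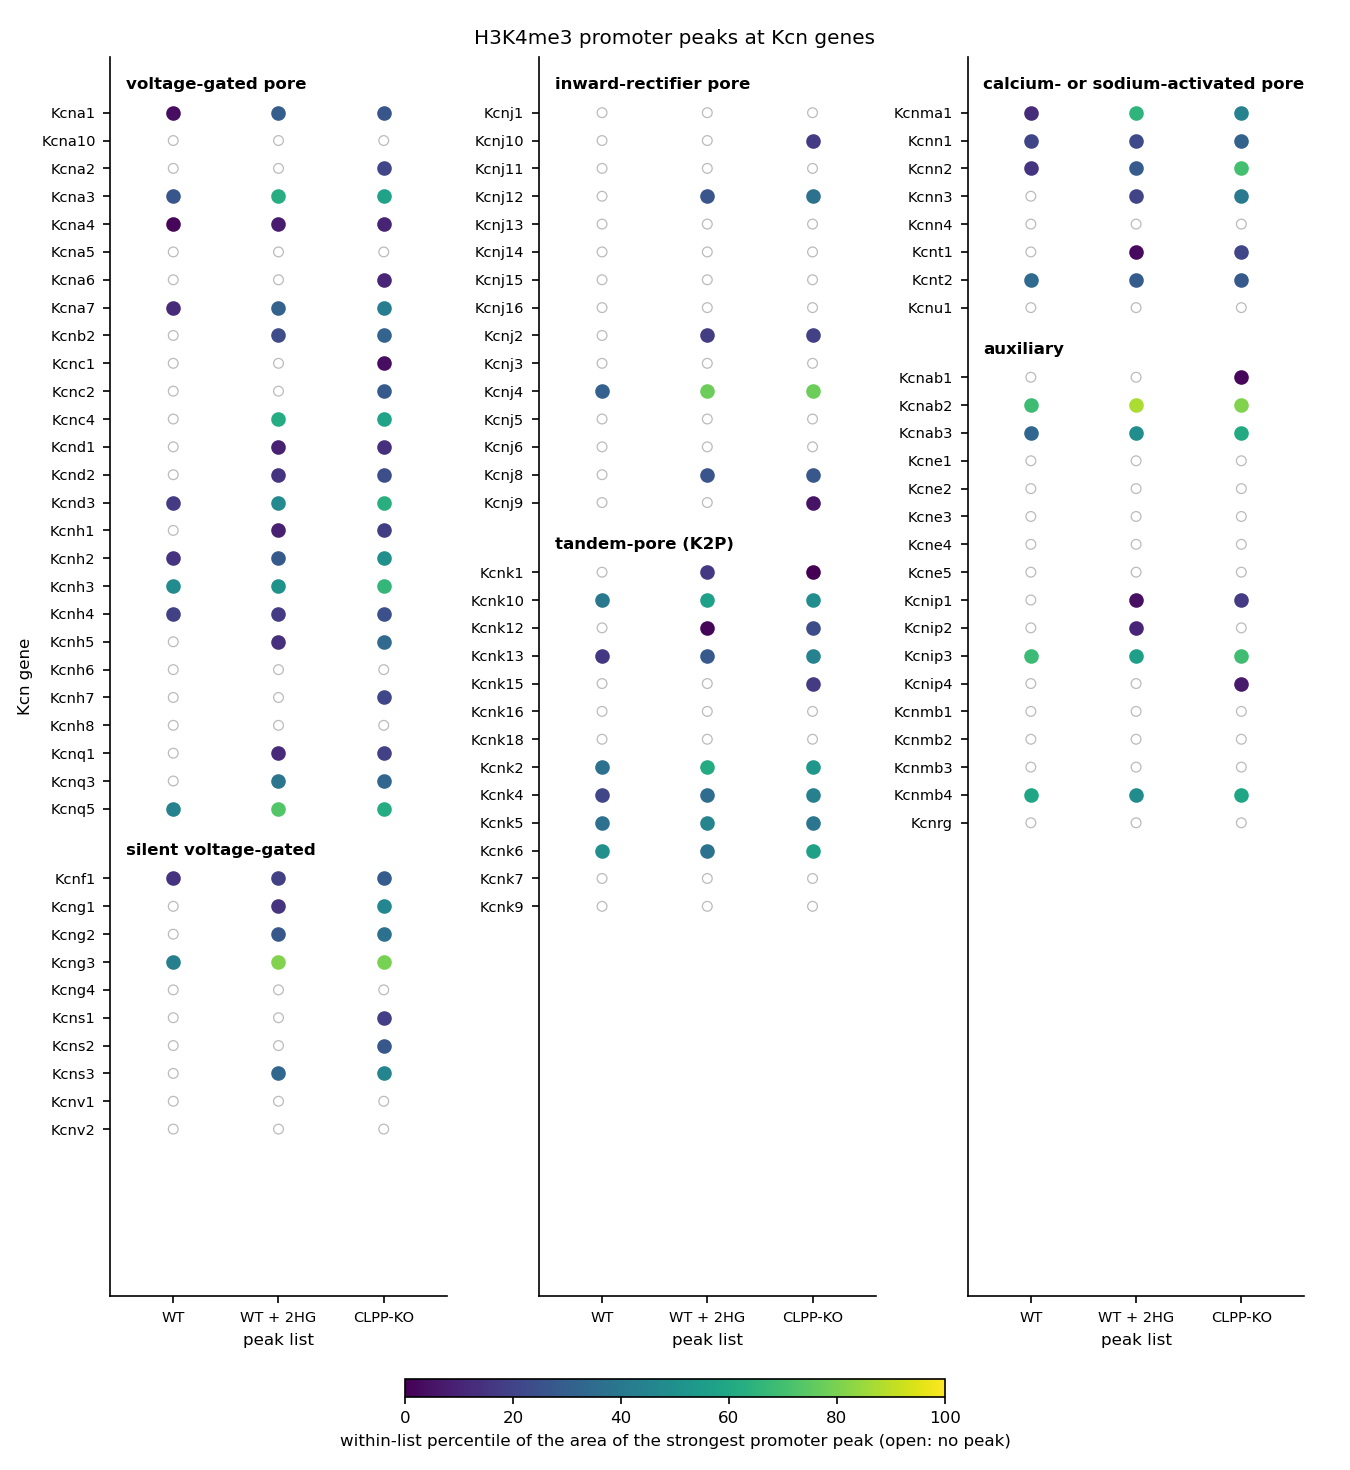
Within-list percentile of the area of the strongest H3K4me3 promoter peak of 89 Kcn genes (rows, by class) in the 3 peak lists (columns), with filled points coloured by percentile and open points for genes with no promoter peak. The WT column has 26 filled points, the WT + 2HG column 46 and the CLPP-KO column 57, and 31 genes are open in all columns.

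Among the voltage-gated pores, the Shaker-type Kv1 genes had 4, 4 and 6 of 8 marked, as Kcna1, Kcna3, Kcna4 and Kcna7 had a peak in all lists and Kcna2 and Kcna6 in CLPP-KO only. Kcna3 stood at percentile 26.8, 62.2 and 57.5. Kcna1, a pore of axons, stood at 3.37, 29.3 and 26.8, and Kcna7 at 12.0, 31.5 and 42.3. The common rank of each of these was higher in both treated lists than in WT, for example at 15.7, 46.5 and 36.7 for Kcna3 and 1.26, 9.25 and 5.38 for Kcna1. Kcna4, an A-type pore, was near the bottom of every list, at 1.84, 8.19 and 10.0, with common ranks of 0.658, 0.594 and 0.667. In CLPP-KO, Kcna2 stood at 21.0 with a peak of 1171 bp and Kcna6 at 10.2 with one of 835 bp. Kcna5 and Kcna10 were unmarked. The Kv1 genes lie in clusters, and on chromosome 3 the neighbours Kcna3, Kcna2 and Kcna10 were marked in all lists, in CLPP-KO only and in none. On chromosome 6 the neighbours Kcna1, Kcna6 and Kcna5 showed the same 3 combinations.

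The Shaw-type Kv3 genes Kcnc1, Kcnc2 and Kcnc4, whose fast pores let neurons fire at high rates, had no WT peak. Kcnc4 had the strongest peak of all genes marked in the treated lists only, at percentile 61.6 and 58.1 with widths of 1990 and 1573 bp, and in CLPP-KO a second peak lay beside it. Kcnc1 and Kcnc2 were marked in CLPP-KO only, each by 2 separate peaks, the stronger at 3.38 and 27.8. The Kcnc1 peaks were narrow, at 175 and 201 bp. The nearest WT peak lay 57119 bp from a Kcnc4 start and 295931 bp from a Kcnc2 start.

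The delayed rectifier gene Kcnb2 had no WT peak and stood at 22.8 and 31.9. The A-type Kv4 genes had 1, 3 and 3 of 3 marked. Kcnd3 stood at 17.2, 47.4 and 63.3, whereas Kcnd1 (9.35 and 13.9) and Kcnd2 (15.5 and 24.0) were marked in the treated lists only. Kcnd2 had a second peak in CLPP-KO.

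Of the Kv7 genes, Kcnq5 was marked in all lists and stood at percentile 44.2, 72.9 and 61.7. Kcnq3, a pore of the M-current that limits repetitive firing of neurons, had no WT peak and stood at 38.8 and 32.9. Kcnq1, the cardiac slow delayed rectifier, likewise had no WT peak and stood at 12.0 and 19.3. Together with Kcnc4 and Kcnk1, Kcnq3 was one of the 3 genes marked in both treated lists alone that had the higher percentile in WT + 2HG.

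Of the 8 genes of the EAG, ERG and ELK subfamily, 3, 5 and 6 were marked. Kcnh3 stood at percentile 47.8, 50.8 and 66.0, with common ranks of 36.3, 31.7 and 48.7. Kcnh2, the cardiac ERG channel, stood at 14.9, 27.8 and 49.8 and had 1 promoter peak in WT and 2 in each treated list. Kcnh4 had 2 peaks in every list, and 1 of them also lay in the promoter window of Hcrt, with the stronger at 19.4, 17.4 and 24.4. The common rank of Kcnh4 (10.0, 2.58 and 4.37) was lower in both treated lists than in WT. Kcnh1 (9.21 and 17.8) and Kcnh5 (13.8 and 34.3) were marked in the treated lists only and Kcnh7 in CLPP-KO only, at 21.2. Kcnh6 and Kcnh8 were unmarked.

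The silent subunits, which alter the gating of Kv2 pores, had 3 genes marked in the treated lists only and 2 in CLPP-KO only. Kcng3 was the strongest, at percentile 42.6, 81.0 and 79.6. Kcnf1 was marked in all lists at 14.7, 19.3 and 28.5, but its common rank (6.88, 3.41 and 6.29) was lower in both treated lists than in WT. Kcng1 stood at 15.0 and 45.7, Kcng2 at 27.2 and 37.4 with 2 peaks in each list, and Kcns3 at 32.7 and 45.4. Kcns2 (27.1) and Kcns1 (18.1) were marked in CLPP-KO only. Kcng4, Kcnv1 and Kcnv2 were unmarked.

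Of the calcium- or sodium-activated pores, Kcnma1, which encodes the large-conductance BK channel, had 2 narrow promoter peaks in WT (692 bp in sum) and 1 broad peak in each treated list (1654 and 1588 bp). It stood at percentile 12.2, 65.1 and 44.2. The small-conductance SK channel gene Kcnn2 stood at 15.5, 28.5 and 70.0, with promoter peaks of 898, 1945 and 2783 bp in sum. In CLPP-KO 427 bp of this lay at the 5′ end and 2356 bp around internal starts. All Kcnn2 peaks of WT and WT + 2HG lay around those internal starts. The common rank of Kcnn2 was 7.37, 8.60 and 54.4. Kcnn1, with 3, 4 and 4 peaks, stood at 20.6, 22.6 and 31.5. On the common rank Kcnn1 (10.8, 4.85 and 8.21) was lower in both treated lists than in WT. Kcnn3 was marked in the treated lists only, at 19.9 and 40.8. The sodium-activated channel gene Kcnt2 was marked in all lists at 34.0, 28.8 and 27.8, and its paralog Kcnt1 in the treated lists only, at 2.93 and 20.8. Kcnt2 differed from Kcnma1 and Kcnn2 in that its percentile was lower in both treated lists. Kcnn4 and Kcnu1 were unmarked.

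The inward rectifiers had a single gene marked in WT, Kcnj4, which stood at percentile 30.5, 77.5 and 77.6. Its peak was 1212, 1143 and 1367 bp wide, with common ranks of 18.9, 67.7 and 65.6. The other classical strong rectifiers, Kcnj2 (17.6 and 19.1) and Kcnj12 (25.9 and 37.1), and the KATP pore gene Kcnj8 (26.2 and 27.1) were marked in the treated lists only. Kcnj11, which encodes the KATP pore of pancreatic beta cells, was unmarked. The divergent neighbours Kcnj9, a G-protein-gated channel gene, and Kcnj10, a glial one, lie 5197 bp apart and were both marked in CLPP-KO only, at 4.79 and 17.4. The Kcnj10 summit lay 71 bp past its 5′ end, whereas the Kcnj9 summit lay 9457 bp inside the gene, 1564 bp past an internal start. The remaining 8 unmarked genes were Kcnj1, Kcnj3, Kcnj5, Kcnj6, Kcnj13, Kcnj14, Kcnj15 and Kcnj16.

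Of the K2P leak channels, 6 were marked in all lists. The mechanosensitive channel genes Kcnk2, Kcnk10 and Kcnk4 stood at percentile 37.4, 39.9 and 20.8 in WT. In WT + 2HG they stood at 61.1, 56.3 and 35.5, and in CLPP-KO at 53.1, 48.7 and 43.2. On the common rank Kcnk2 (25.3, 45.0 and 30.9) and Kcnk4 (14.6 and 18.8 in the treated lists) were higher in both treated lists, whereas Kcnk10 (27.9, 38.9 and 25.4) was lower in CLPP-KO than in WT. Kcnk13 stood at 16.3, 27.4 and 44.5 with a second peak in CLPP-KO, and its common rank was 7.84, 7.80 and 20.3. The percentiles of Kcnk6 (49.9, 37.8 and 57.2) and Kcnk5 (36.9, 45.1 and 38.9) had no common order. On the common rank both were lower in CLPP-KO than in WT, at 36.3 against 38.5 for Kcnk6 and 14.4 against 24.8 for Kcnk5. In WT + 2HG the common rank of Kcnk6 was also lower than in WT, whereas that of Kcnk5 was 24.9. Kcnk1 and Kcnk12 were marked in the treated lists only. Kcnk1 stood at 16.1 in WT + 2HG and, with a peak of 195 bp, at 0.261 in CLPP-KO, and Kcnk12 stood at 1.34 and 23.2. Kcnk15 was marked in CLPP-KO only, at 17.4, and Kcnk7, Kcnk9, Kcnk16 and Kcnk18 in no list.

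The auxiliary genes, with 9 of 17 unmarked throughout, also held the highest-ranked promoter. Kcnab2, a cytoplasmic beta subunit of Shaker-type channels, ranked first of all potassium channel genes in every list, at percentile 69.1, 87.2 and 80.9. Its peaks also lay in the promoter window of Nphp4, and those of Kcnab3 (32.8, 48.7 and 60.6) in that of Trappc1, so that both genes rest only on peaks shared with a neighbour. Kcnip3, a calcium sensor that binds A-type channels, stood at 68.2, 56.1 and 69.4, and Kcnmb4, a neuronal beta subunit of the BK channel, at 59.2, 48.2 and 59.2. Their common ranks were also lowest in WT + 2HG, at 60.1, 38.6 and 53.6 for Kcnip3 and 49.2, 28.4 and 38.9 for Kcnmb4. Kcnip1 was marked in the treated lists only, at 4.16 and 17.2, Kcnip4 (6.75) and Kcnab1 (1.76) in CLPP-KO only and Kcnip2 (10.3) in WT + 2HG only. All 5 Kcne genes, whose products are small membrane partners of Kv7 and other pores, were unmarked in every list, as were Kcnmb1, Kcnmb2, Kcnmb3 and Kcnrg.

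Over the 28 genes marked in all lists, the median percentile was 28.6, 46.8 and 54.7. On the common rank the median rank of the 28 was 17.3, 26.8 and 33.0. The rank was higher than in WT for 18 of 28 genes in WT + 2HG (against 48.5% of the 11021) and for 19 of 28 in CLPP-KO (against 47.7%). Most of these genes started from a low rank. Of the 5510 coding genes below the median WT rank, 56.7% ranked higher with 2HG and 54.9% in the knockout. Of the 26 potassium channel genes there, 17 (65.4%) and 18 (69.2%) did. The 2 sets were not matched in starting rank, as the median WT rank was 13.3 for the 26 and 25.0 for the 5510.

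The promoter peaks of the same 28 genes were wider in sum than in WT for 19 of 28 in WT + 2HG, against 73.3% of coding genes marked in all lists, and for 21 of 28 in CLPP-KO, against 72.7%. These shares were near the background. The median ratio to the WT width was 1.17 for 2HG and 1.27 for the knockout, against 1.11 and 1.10. Below the median WT rank it was 1.24 and 1.33 for the 26 potassium channel genes, against 1.17 and 1.17 for the 5510 coding genes.

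**Figure D3:**
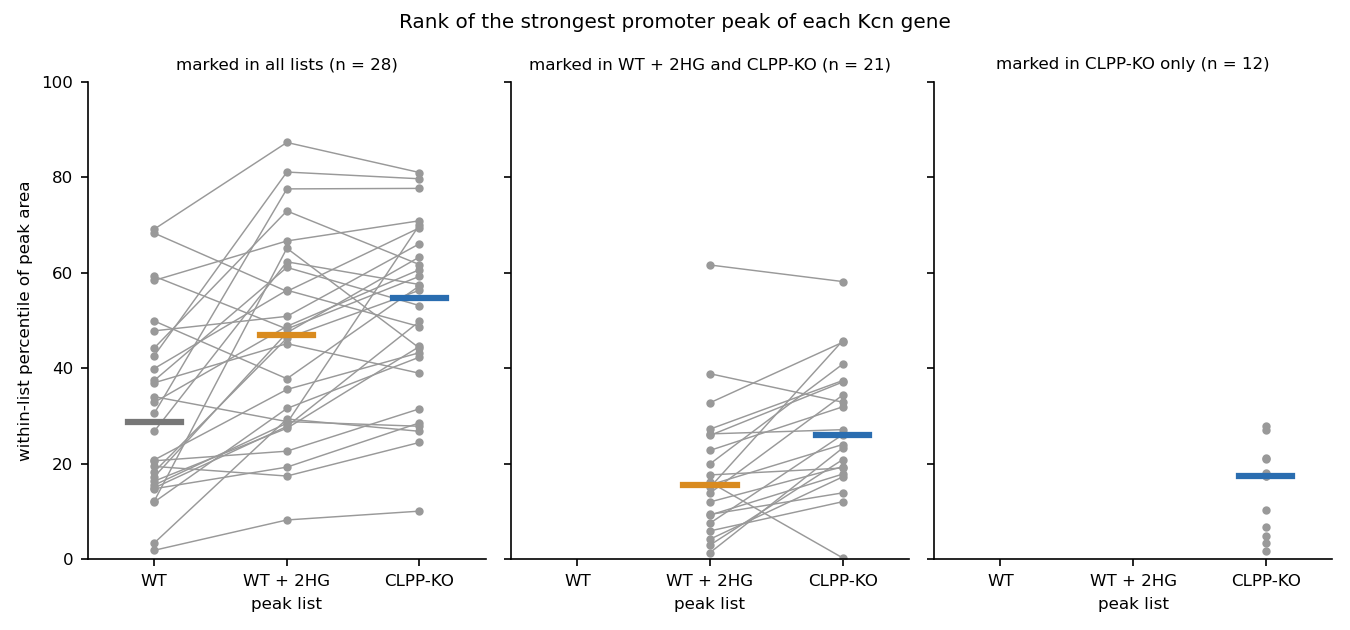
Within-list percentile of the area of the strongest promoter peak (y axis) of each Kcn gene in each list (x axis), in panels by the lists in which the gene was marked, with thin lines joining the values of 1 gene and thick bars at the medians. The medians of the 28 genes in the left panel are 28.6, 46.8 and 54.7, those of the 21 in the middle panel 15.5 and 26.0, and that of the 12 in the right panel 17.4.

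The genes marked in the treated lists only had low peaks there. The 21 marked in both had a median percentile of 15.5 and 26.0, against 17.3 and 24.4 for the 1033 coding genes of the same combination. In all 21 the strongest peaks of both treated lists overlapped, against 95.7% of the 1033. The percentile was higher in CLPP-KO in 18 of 21 (85.7%, against 70.9% of the 1033). Kcnc4, Kcng1, Kcns3, Kcnn3, Kcng2 and Kcnj12 ranked highest among these in CLPP-KO, between 37.1 and 58.1. The 12 marked in CLPP-KO only had a median of 17.4, against 12.2 for the 546 coding genes of that combination.

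Because a peak had to overlap the 2000 bp around a start of its gene, nearness of its summit to a start was partly set in advance. Distances to the nearest start were not compared with those of other coding genes. The summit of the strongest peak was downstream of the nearest start of the gene in 16 of 28, 37 of 50 and 45 of 61 genes, at a median position over all of them of 6.5, 65.5 and 79 bp downstream. It fell in the noncoding part of an exon in 57.1, 66.0 and 70.5% of the marked genes, against 38.9, 41.3 and 39.4% of all marked coding genes. A coding exon held the summit of 21.4, 20.0 and 19.7% of the marked genes, against 22.2, 23.8 and 26.2%, and among them was Kcnc2 in CLPP-KO. An intron held the summit of 21.4, 8.00 and 6.56%, against 29.2, 25.5 and 25.4%. Outside the gene lay 0, 3 and 2 summits (0, 6 and 3.28%), against 9.63, 9.44 and 9.03%.

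Few calls rested on the edge of the 2000 bp window. The second Kcnh4 peak reached into it by the least, and the single peak of Kcnj9 in CLPP-KO was lost with a window of 1000 bp. Just outside lay a WT + 2HG peak 2435 bp from a Kcns1 start, a CLPP-KO peak 4458 bp from a Kcnn4 start and a WT + 2HG peak 5439 bp from a Kcnj14 start. With the wider window of 3000 bp, 28, 51 and 61 genes were marked.

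**Figure D4:**
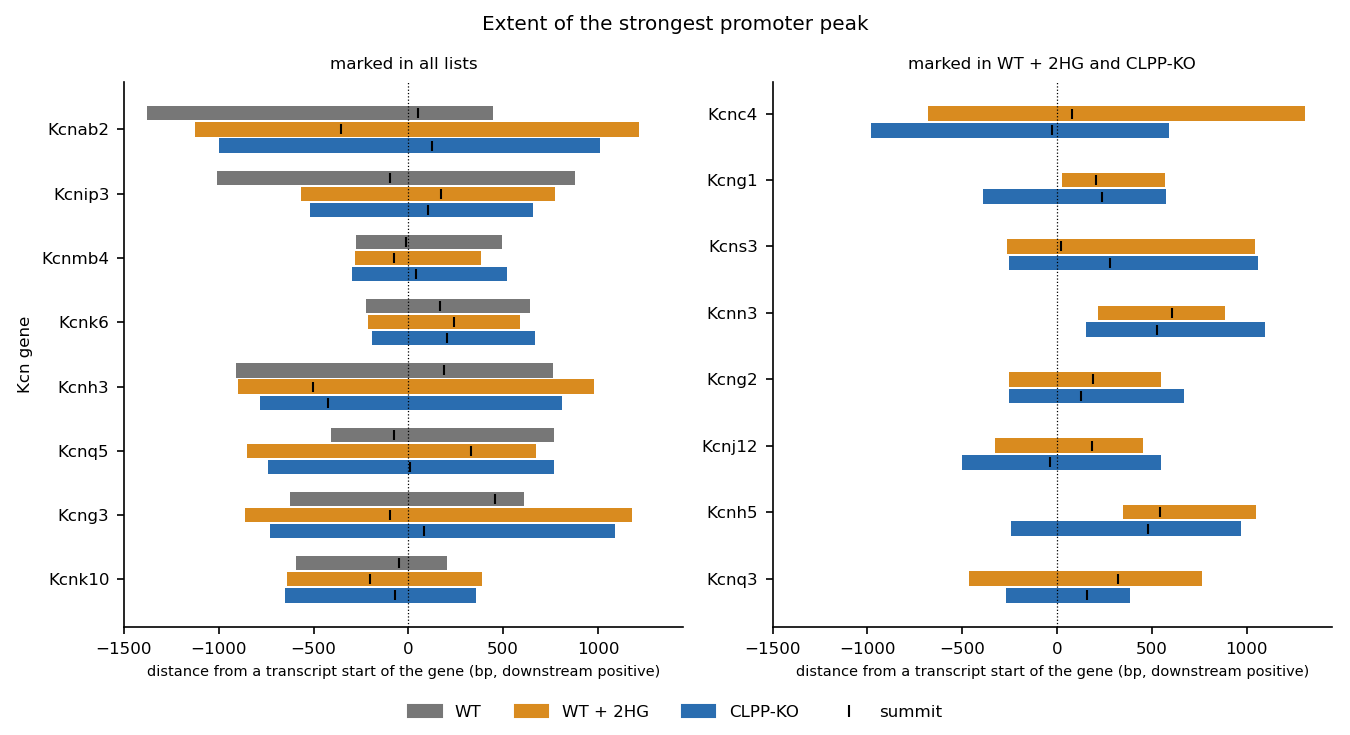
Extent of the strongest promoter peak (bars, coloured by list) and its summit (black ticks) around a transcript start of the gene, in bp with downstream positive and the start nearest to the CLPP-KO summit at 0, for the 8 highest-ranked of the Kcn genes shown that were marked in all lists (left, by WT percentile) and in both treated lists only (right, by CLPP-KO percentile). The peaks of a gene overlap between lists, and the Kcnc4 peak is 1990 bp wide with 2HG and 1573 bp in the knockout.

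The CpG content of the reference sequence, which played no part in the choice of genes, differed between the combinations of lists. It was measured as observed over expected CpG in the 300 bases from 250 before to 50 after the 5′ end of the gene. The median was 0.564 for the 28 genes marked in all lists (range 0.0709 to 1.05), 0.531 for the 21 marked in both treated lists (0.167 to 0.872), 0.473 for the 12 marked in CLPP-KO only (0.184 to 0.731) and 0.278 for the 31 marked in none (0 to 0.918). The medians of all coding genes with the same combinations were 0.680, 0.527, 0.439 and 0.189. The ranges of the classes overlapped. Over all 93 genes the median was 0.403, against 0.433 over all coding genes. The motif TATAAA, searched on both strands of the same 300 bases, was present in 5.38% of the potassium channel genes and 13.7% of coding genes.

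The lower WT share than that of coding genes was seen on both sides of a CpG ratio of 0.6 at the 5′ end. Of the 26 potassium channel genes with a ratio of at least 0.6, 50.0, 80.8 and 88.5% were marked, against 84.0, 89.7 and 91.1% of the 7963 coding genes above that ratio. Of the 67 below it, 22.4, 43.3 and 56.7% were marked, against 32.4, 37.2 and 39.2% of 13807. When each gene was instead placed by its start with the highest ratio, the 37 genes below 0.6 were marked at 8.11, 24.3 and 32.4%, near the 9.60% of coding genes in WT and against 12.8 and 14.5% in the treated lists. The 56 above it were marked at 44.6, 73.2 and 87.5%, against 81.3, 87.9 and 89.7%. Kcnj6, Kcnk9 and Kcnh6 had ratios of 0.918, 0.708 and 0.672 and were marked in no list. At the summits themselves the CpG content was higher than at the 5′ ends. In 300 bases centred on the CLPP-KO summit the median ratio was 0.835 for genes marked in all lists, 0.812 for those marked in both treated lists and 0.801 for those marked in CLPP-KO only, against 0.836, 0.771 and 0.715 for all coding genes of these combinations.

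**Figure D5:**
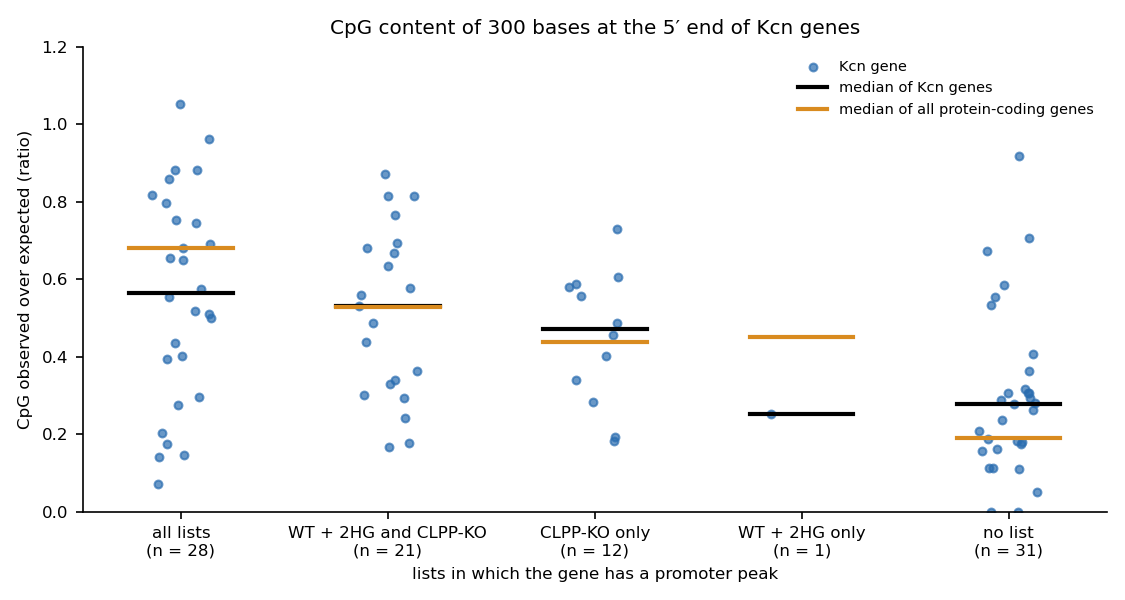
Observed over expected CpG in 300 bases at the 5′ end (y axis, a ratio) of each Kcn gene (points, with random sideways spread) by the lists in which it was marked (x axis), with black bars at the medians of Kcn genes and orange bars at those of all protein-coding genes. The Kcn medians are 0.564, 0.531, 0.473 and 0.278 for all lists, both treated lists, CLPP-KO only and no list, and the single gene marked in WT + 2HG only is Kcnip2.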

How the data were processed

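H3K4me3 ChIP–seq of mBA cells comprised 12 ChIP samples, 4 per condition, and 3 inputs. The authors trimmed the reads with fastp 0.23.4 (versions from the submitters' processing notes), mapped them to GRCm39 with BWA 0.7.17 and called peaks with Genrich 0.6.1 on the 4 replicates of a condition together. Each of the 3 deposited lists gives positions, a score limited to 1000, the area under the curve as signal, a summit −log10 p-value and a q field that is −1 throughout. These deposited values depend on depth and are not scaled between lists, so they served only to rank or filter peaks within a list. The score was not used.

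Genes and starts came from GENCODE M39, and all 93 genes lay on chromosomes present in the lists. Peaks on names without a match in the reference (77, 6 and 217) held none of these genes. A peak counted for every gene whose window of 2000 bp either side of a start it overlapped by at least 1 bp. Percentiles are mid-ranks of the area. Subfamilies followed the symbol prefix. 1 gene with the prefix was left out by rule, and some of the 93 genes and some sequences are not reported here, though counts and medians include all 93. The rule for naming genes took those marked in a treated list and not in WT, and the reverse. It also took the 10 with the highest WT percentile and those with several promoter peaks. Other genes marked in all lists, such as Kcnj4 and Kcna3, are given with values outside this rule. The rest are given mainly by name or in the counts. The members and lists were chosen with earlier results of these data known. No tests were made, because each condition has 1 list, and counts are set beside the share of all protein-coding genes. Alternatives changed the window, the starts, the thresholds, the list lengths, the assignment of shared peaks, the ranking measure and the sequence window. Leaving out shared peaks and reading CpG at another start were added after seeing the data. The assignment of peaks to genes was checked on simulated data. Tables were handled with pandas 2.3.3 and numpy 2.4.6 and figures drawn with matplotlib 3.10.9, under Python 3.11.15.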

Additional observations from a re-analysis of the deposited data

How the results depend on the processing

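No paired analysis was possible because each list joins all 4 replicates in 1 peak call, which also means that no replicate could be left out. Of 174 recomputed values 146 stayed within 1.5 times the count reported or within the interval of the median or share, 24 moved and 4 reversed, and only the differences in share from coding genes have a sign that could reverse. The share of potassium channel genes minus that of coding genes in CLPP-KO, 7.42 percentage points, turned to -3.09 (equal length by area), -3.86 (by summit p) and -3.05 (area of at least 1000), and was 0.337 at a summit p of at most 1e-05. In WT + 2HG it was -2.66 and became -10.6, -12.6, -15.0 and -10.5 in the same order, and 2.59 with each peak given to the nearest start. In WT it was -21.2 and became -28.1 with an area of at least 1000. Limiting the treated lists to the length of WT by area or by summit p gave 12 and 10 genes marked in both treated lists and not in WT, 1 and 1 gene (Kcna4) with a WT peak missing from a treated list, and 4 and 4 auxiliary genes marked in CLPP-KO, no more than in WT. By summit p, 3 inward rectifiers were marked in CLPP-KO. An area of at least 1000 left 15 genes marked in WT, 4 auxiliary genes in CLPP-KO and 0 in WT + 2HG only, and an overlap of at least 200 bp gave 2 in WT + 2HG only. Ranked by width, the median percentile was 49.3, 41.2 and 51.0 (WT first, CLPP-KO last). At the start with the highest CpG ratio of each gene, an alternative chosen after seeing the data, the medians were 0.847, 0.709, 0.683 and 0.312 for all lists, both treated lists, CLPP-KO only and no list. Apart from the construction of these alternatives, the cause was not tested. Depth is unknown, so a missing peak may lie below the calling threshold.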

Other observations

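Away from the promoter windows, some potassium channel genes also held H3K4me3 peaks inside the gene. Kcnk12, a K2P channel gene whose promoter was unmarked in WT, had an internal peak in all lists that ranked above its promoter peaks, at percentile 47.9, 61.9 and 60.6 (chr17:88053000-88053937 in WT, GRCm39). Kcnq1 had an internal peak in all lists at the start of the noncoding RNA Kcnq1ot1, at 20.0, 34.3 and 25.0, and this RNA is known as the imprinted antisense transcript of the locus. Kcnh2 had an internal peak in WT + 2HG (21.7) and CLPP-KO (45.1), as did Kcng2 (3.62 and 32.6) and Kcns1 (15.3 and 13.6). Kcnd3 had one in WT + 2HG (1.50) and Kcnn4 in CLPP-KO (12.4). A second internal Kcnq1 peak of 70 bp was listed in CLPP-KO.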
